A study of Homo sapiens with 2 samples.

Results

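SLC17A8-positive serotonergic neurons are FEV-expressing cells that also carry transcripts of SLC17A8, the gene of the vesicular glutamate transporter VGLUT3. They were selected on measured values in 2 single-cell libraries of sorted human serotonin neurons. A cell was a member when it held at least 1 unique molecular identifier (UMI, a label for 1 captured transcript) of FEV and at least 2 UMIs of SLC17A8. It also had to reach 1000 UMIs and 500 genes, with no more than 10% of its UMIs on mitochondrial genes. Members numbered 1595 of 6385 kept cells in the WT-labelled library and 946 of 7573 in the FKO-labelled library, 2541 of 13958 in all. The cells they were compared with, called comparators here, held FEV and 0 UMIs of SLC17A8, and numbered 3580 and 5518. FEV and SLC17A8 chose the members, so their levels are given as a description only.

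Serotonin neurons were made from H9 (WA09) human embryonic stem cells, an established line, and the study asked what FOXA2 does in their development. The WT-labelled library came from H9 cells with EGFP knocked in at TPH2, and the FKO-labelled library from cells that carry the same reporter and a FOXA2 knockout. According to the study's methods the knockout line, FKO2, carries an end-joining edit that ends the reading frame early, and the reporter was then added to it. EGFP-positive cells were sorted at day 42 of differentiation, and 1 library per genotype was made with the 10x Genomics 3' kit. The study grew both genotypes at more than 1 dose of purmorphamine, an activator of SHH signalling, and its text does not state the dose for these libraries. With 1 library per genotype there are no replicates, so no test was made, and every interval is an exact 95% interval that covers counting error only.

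The WT-labelled library held 11052 barcodes and 123064653 UMIs, with a median of 10959.5 UMIs. The FKO-labelled library held 8806 barcodes and 70588747 UMIs, with a median of 6669.5. The limit on mitochondrial UMIs took the WT-labelled barcodes from 10610 to 6385 and the FKO-labelled ones from 8588 to 7573. The libraries shared 21 barcode sequences, and 1 member of either library had its barcode among the kept cells of the other. FOXA2 (ENSG00000125798, chromosome 20), the gene the knockout targets, had 375 UMIs or 4.31 CPM (the gene's UMIs scaled to the total of the group) over all kept WT-labelled cells and 1517 UMIs or 22.7 CPM over the FKO-labelled ones. Its level thus went against the label, although reads from the 3' end leave an edit of the reading frame unseen. The cause was not tested. Each library goes by its label here, and genotype, depth and culture cannot be told apart between them.

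Serotonin neurons of the raphe make serotonin with TPH2 and DDC, load it into vesicles with SLC18A2 and take it back up with SLC6A4, under transcription factors that include FEV, GATA2, GATA3 and LMX1B. A subset of raphe neurons also carries VGLUT3, which loads glutamate into vesicles and lets the same cell release both transmitters. VGLUT3 is found in inner ear hair cells and in some cholinergic and GABAergic neurons as well, so the gene alone does not name a cell type. SLC17A8 (ENSG00000179520) lies at chr12:100357074-100422055 and FEV (ENSG00000163497) at chr2:218981087-218985184 in GRCh38.

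SLC17A8 reached 587 CPM in WT-labelled members (13156 UMIs, 577 to 597) and 722 CPM in FKO-labelled members (7274 UMIs, 706 to 739). The median member held 5 UMIs of it in the WT-labelled library and 6 in the FKO-labelled library, and the highest held 71 and 56. Members just inside the limit, with 2 UMIs, numbered 397 and 180, while cells just outside it, with 1 UMI, numbered 1089 and 476. Cells with 10 or more UMIs were 7.09% of WT-labelled FEV cells and 3.85% of those labelled FKO, and they held 60.1% and 54.1% of all SLC17A8 UMIs in FEV cells. FEV stood at 1822 CPM in WT-labelled members against 1506 CPM in comparators, and at 1013 against 955 CPM in the FKO-labelled library. The distribution was a long tail without a gap, so the limit of 2 UMIs divided a range.

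Members made up 25.5% of FEV cells labelled WT (1595 of 6264, 24.4% to 26.6%) and 13.6% of those labelled FKO (946 of 6940, 12.8% to 14.5%). The median depth of members was 12385 UMIs in the WT-labelled library and 6940 in the FKO-labelled library, and 2 UMIs of a gene are reached more easily in a deeper cell. When each cell was thinned to 2000 UMIs and the groups were chosen again, the shares were 8.30% (472 of 5686, 7.60% to 9.05%) and 6.82% (389 of 5703, 6.18% to 7.51%). Thinned to 5000 UMIs, a depth chosen after the data had been seen, they were 15.1% (904 of 5971) and 10.0% (564 of 5641). The gap between the libraries thus varied with depth, widest on all UMIs and narrowest at 2000. Thinning left out 0 of 1595 members and 23 of 3580 comparators labelled WT, and 4 of 946 members and 46 of 5518 comparators labelled FKO.

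Free RNA gives UMIs in cells that do not make a transcript, and cycling cells with UMIs of both MKI67 and TOP2A were set beside FEV cells. At least 2 SLC17A8 UMIs were found in 2 of 40 cycling cells labelled WT (5%, median 22957.5 UMIs) and 7 of 86 labelled FKO (8.14%, median 13386 UMIs). After thinning, no cycling cell held 2 UMIs, 0 of 40 and 0 of 85, with upper limits of 8.81% and 4.25%, against 499 of 6240 and 459 of 6889 thinned FEV cells. At least 1 thinned SLC17A8 UMI was present in 0 of 40 and 2 of 85 cycling cells, against 1124 of 6240 WT-labelled FEV cells and 811 of 6889 FKO-labelled ones. Of the cycling cells, 39 of 40 labelled WT and 61 of 86 labelled FKO held FEV themselves, so they are largely part of the group they are set beside. SLC17A8 also chose the members. These shares are therefore a description and give no background share of free RNA, which was not tested.

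**Figure D1:**
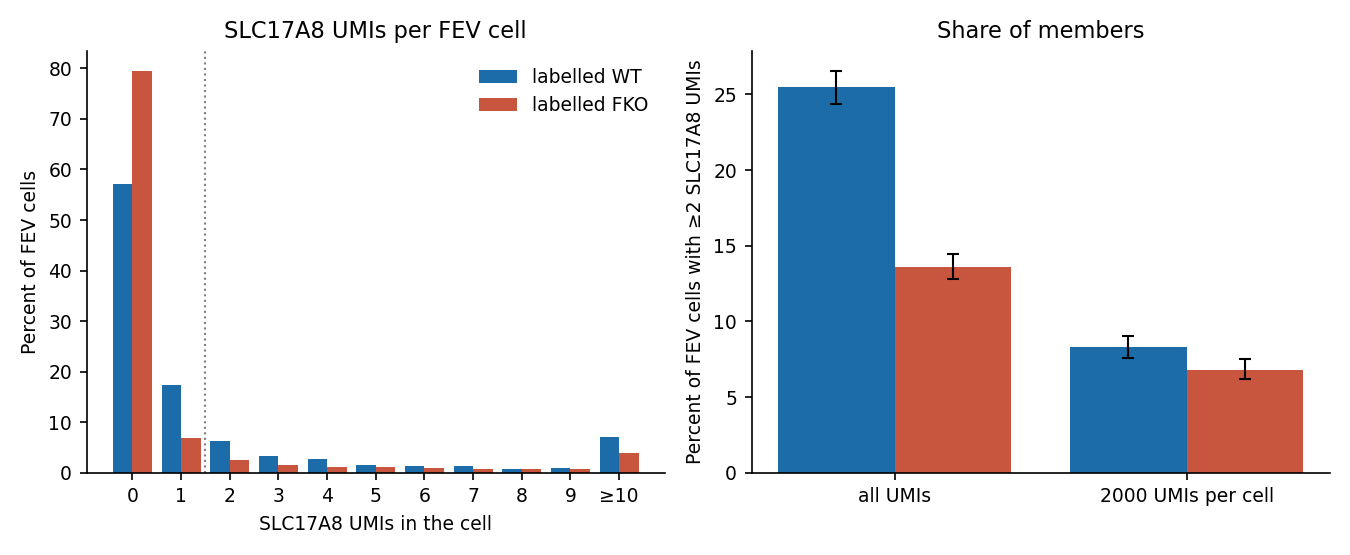
Left, the percent of FEV cells (y axis) with each number of SLC17A8 UMIs (x axis), for the libraries labelled WT (blue) and FKO (red), with the limit for members as a dotted line. Right, the percent of FEV cells with at least 2 SLC17A8 UMIs, on all UMIs and after thinning to 2000 UMIs per cell and choosing again, with exact 95% intervals as bars: 25.5% and 13.6% on all UMIs, 8.30% and 6.82% after thinning.

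The label was checked first against its companion markers HMX3, SOX1, ERBB4, COL5A2 and CAV1, which were proposed from these same data and so describe the members without supporting the label. All 5 were higher in members than in comparators in both libraries. HMX3 (ENSG00000188620, chr10:123135970-123139423), a homeodomain factor of ventral hindbrain and inner ear, stood at 29.9 CPM in members against 7.99 in comparators labelled WT, and at 49.2 against 3.60 in the FKO-labelled library. Its log2 ratios were 1.90 (1.72 to 2.09) and 3.78 (3.52 to 4.03). SOX1 (ENSG00000182968), an HMG-box factor of neural progenitors and some neurons, had 28.0 against 6.23 CPM and 60.5 against 10.0 CPM, with log2 ratios of 2.17 (1.97 to 2.37) and 2.59 (2.42 to 2.77). HMX3 had the wider gap in the FKO-labelled cells, where its members were higher and its comparators lower than in the WT-labelled library.

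COL5A2 (ENSG00000204262, chr2:189031898-189441111), a chain of the fibrillar collagen type V, was the most abundant of the 5 at 168 CPM in members against 30.7 CPM in comparators labelled WT, and 239 against 34.8 CPM labelled FKO. A COL5A2 UMI was found in 62.3% of members and 24.8% of comparators labelled WT, and in 66.4% and 16.7% of those labelled FKO. ERBB4 (ENSG00000178568), the neuregulin receptor, had 17.9 against 3.86 CPM and 39.7 against 6.10 CPM. CAV1 (ENSG00000105974), the main protein of caveolae, had 25.7 against 3.67 CPM and 38.2 against 3.45 CPM. CAV1 thus showed log2 ratios of 2.81 (2.56 to 3.06) and 3.47 (3.20 to 3.74), while its UMIs came from 13.1% and 15.1% of members.

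Genes next to HMX3 and CAV1 on the chromosome moved the same way. HMX2, which starts 8713 bases after the end of HMX3 at chr10:123148136-123150672, had log2 ratios of 1.70 (1.36 to 2.04) and 4.05 (3.38 to 4.77), from 8.17 against 2.51 CPM and 8.34 against 0.505 CPM. Its WT ratio had the opposite sign, -1.01, when only cells with at most 5% mitochondrial UMIs were kept, which left 72 members labelled WT. CAV2, which ends 16468 bases before CAV1 on chromosome 7, had a log2 ratio of 1.51 in each library, with intervals of 1.32 to 1.69 and 1.25 to 1.77.

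Few members held all companion markers at once. At least 1 of the 5 was detected in 79.1% of WT-labelled members and 86.5% of those labelled FKO, against 38.8% of comparators labelled WT, and 1488 of 5518 FKO-labelled ones. At least 2 were detected in 46.3% and 58.2% of members, against 8.27% and 4.58% of comparators, and all 5 in 7 and 6 members. After thinning to 2000 UMIs, at least 2 were detected in 7.21% and 18.6% of members and in 0.309% and 0.457% of comparators. The order between members and comparators was the same at equal depth.

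Levels of 4 companion markers followed the number of SLC17A8 UMIs, and CAV1 did not. COL5A2 went from 30.7 CPM at 0 SLC17A8 UMIs to 39.8 at 1, 60.3 at 2, 85.2 at 3 to 4, 162 at 5 to 9 and 339 CPM at 10 or more in the WT-labelled library. The FKO-labelled series was 34.8, 50.6, 113, 147, 255 and 385 CPM. SOX1 reached 60.8 and 95.4 CPM in cells with 10 or more SLC17A8 UMIs, HMX3 42.8 and 74.7 CPM, and ERBB4 31.6 and 68.6 CPM, in each case the top of the 6 steps. CAV1 was highest at 5 to 9 UMIs, with 41.7 CPM labelled WT and 56.8 CPM labelled FKO, and fell back to 22.7 and 16.4 CPM at 10 or more. Median depth did not follow the steps: it was 12840 UMIs at 0 SLC17A8 UMIs and 12458 at 10 or more labelled WT, and 7198 and 6853 labelled FKO. Cells with a single SLC17A8 UMI, outside the limit, lay between the comparators and the cells with 2 UMIs for all 5 markers in both libraries.

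**Figure D2:**
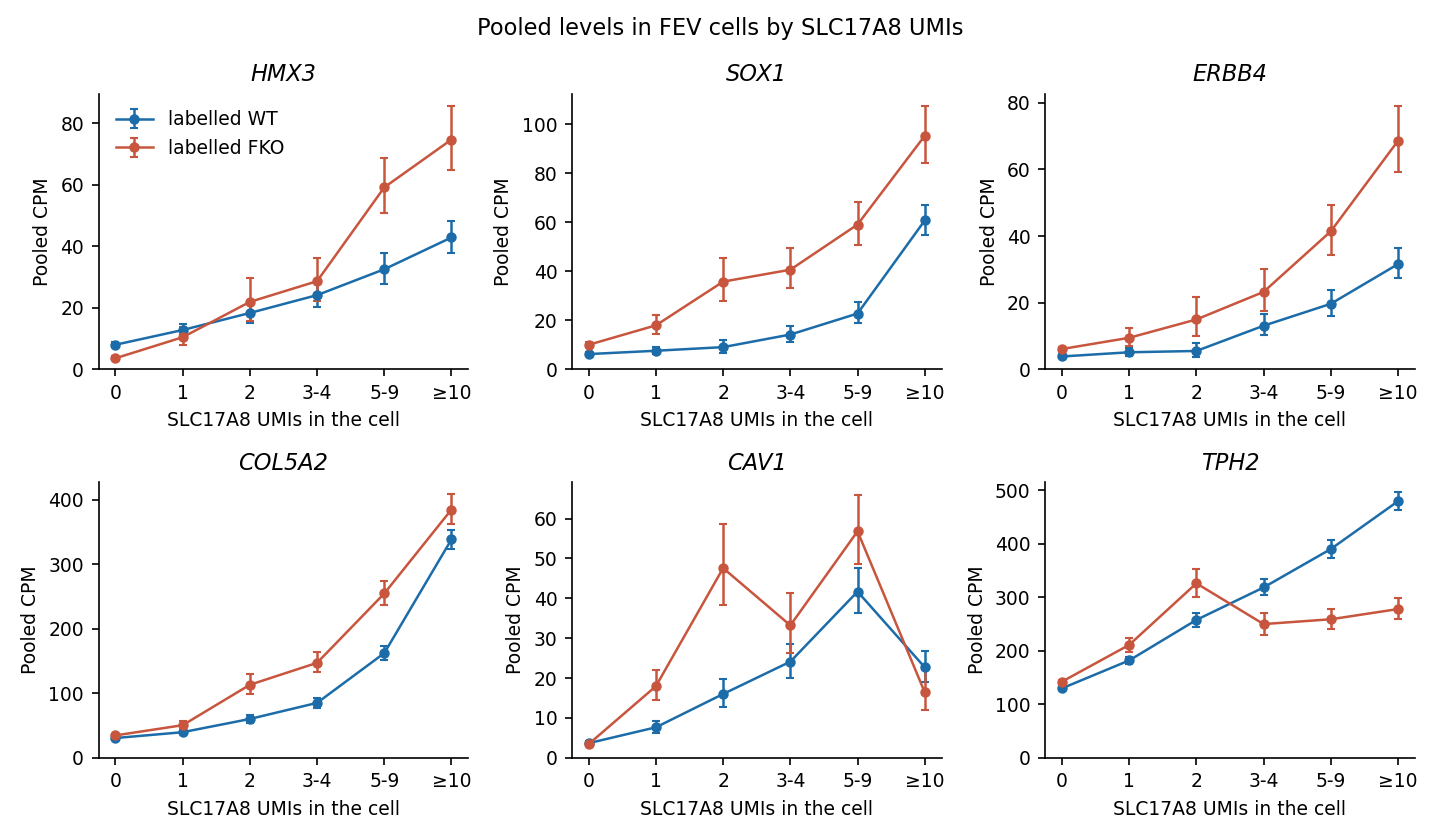
Pooled CPM (y axis) of the 5 companion markers and TPH2 in FEV cells grouped by their SLC17A8 UMIs (x axis), in the libraries labelled WT (blue) and FKO (red), with exact 95% Poisson intervals. COL5A2, SOX1, ERBB4 and HMX3 are highest at 10 or more SLC17A8 UMIs in both libraries, CAV1 at 5 to 9, and TPH2 keeps rising only in the WT-labelled library.

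The serotonergic identity of members was then read from genes that the selection did not use. TPH2 (ENSG00000139287), the rate-limiting enzyme of serotonin synthesis in neurons, stood at 365 CPM in members against 129.8 CPM in comparators labelled WT, and at 275 against 142 CPM labelled FKO. The log2 ratios were 1.49 (1.44 to 1.54) and 0.95 (0.88 to 1.01), and 89.5% and 68.7% of members held a TPH2 UMI against 65.6% and 55.1% of comparators. TPH2 rose with each step of SLC17A8 UMIs in the WT-labelled library, up to 479 CPM at 10 or more. In the FKO-labelled library it was highest at 2 UMIs, 326 CPM, and stood at 278 CPM at 10 or more. Within members, SLC17A8 was higher in those without a TPH2 UMI, 759 against 570 CPM labelled WT and 1100 against 620 CPM labelled FKO. Those cells were also shallower, with medians of 11204 against 12511 UMIs and 5891 against 7718 UMIs. The sort itself selected on the TPH2 reporter in both libraries.

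Other genes of serotonin synthesis differed less. Of 9 genes for synthesis and its cofactor tetrahydrobiopterin, 7 passed the level limit of a mean CPM of at least 20 over the 4 groups, none was past 2-fold in both libraries (over all 6525 genes that passed, 0.169% were higher and 0.138% lower), and their median log2 ratios were -0.01 (WT) and -0.19 (FKO). DDC, which makes serotonin from 5-hydroxytryptophan, was at 267 CPM in members and 270.2 CPM in comparators labelled WT, and at 205 and 241 CPM labelled FKO. GCHFR, a regulator of the cofactor's synthesis, had 555 against 433 CPM and 311 against 294 CPM. TPH2 was thus the only one of these 7 past 2-fold in either library.

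Among transport and breakdown genes, SLC6A4, the serotonin transporter, had log2 ratios of 0.46 (0.31 to 0.62) and 0.42 (0.28 to 0.55), and MAOB, a monoamine oxidase, 0.41 (0.36 to 0.46) and 0.47 (0.40 to 0.54), above the 95th percentile of all genes in both libraries (0.28 and 0.27). In the FKO-labelled library SLC6A4 fell with SLC17A8, from 87.1 CPM at 2 SLC17A8 UMIs to 40.4 CPM at 10 or more, against 42.3 CPM in comparators, and its ratio was 0.095 with members of at least 5 UMIs, a limit chosen after the data had been seen. SLC18A2, the vesicular monoamine transporter, stood at 19.7 against 19.4 CPM labelled WT and 46.7 against 54.5 CPM labelled FKO. None of the 6 transport and breakdown genes that passed the level limit was past 2-fold in both libraries.

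Of 13 serotonergic transcription factors, 6 passed the level limit, HMX3 and INSM1 only through their levels in members, so a count by direction is not read against all genes. The companion marker HMX3 was the 1 past 2-fold in both libraries. GATA2 had 47.3 against 14.9 CPM labelled WT and 56.2 against 40.4 CPM labelled FKO, log2 ratios of 1.66 (1.53 to 1.80) and 0.48 (0.34 to 0.61). INSM1, a zinc finger factor of newly formed monoaminergic neurons, had log2 ratios of 1.25 (1.09 to 1.40) and 0.98 (0.77 to 1.19). GATA3 and LMX1B were higher by less, at 0.48 and 0.32 and at 0.31 and 0.42. NKX2-2, below the level limit, stood at 14.6 against 6.68 CPM and 26.1 against 3.74 CPM.

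SLC17A6, the vesicular transporter VGLUT2, had 10 UMIs (0.446 CPM) in members against 73 UMIs (1.52 CPM) in comparators labelled WT, and 69 UMIs (6.85 CPM) against 225 UMIs (4.73 CPM) labelled FKO. SLC17A7, the transporter VGLUT1, had 1 and 2 UMIs in members of the 2 libraries. Of 8 glutamate handling genes that passed the level limit, 5 were lower and 1 was higher in members of both libraries, none past 2-fold in both, with median log2 ratios of -0.13 and -0.09. Over all 6525 genes, 41.4% were lower and 31.2% higher in members of both libraries.

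Across the transcriptome, members and comparators were close. Of 6525 genes with a mean CPM of at least 20, without FEV and SLC17A8, 97.3% lay within 1.5-fold in the WT-labelled library and 97.6% in the FKO-labelled library, and the median log2 ratios were -0.02 in each. At least 2-fold higher in members of both libraries were 11 genes (0.169%), and at least 2-fold lower 9 genes (0.138%). Over the alternatives the counts ran from 7 to 48 and from 0 to 50. With at least 1 SLC17A8 UMI or at most 5% mitochondrial UMIs, 0 of the 9 lower genes remained past 2-fold in both libraries. Of the 11, GNG11, HMX3, RORB, SOX1 and ZNF385D had a mean under 20 CPM in comparators, and of the 9, ARPP21 and COL1A1 in members, so these 7 reached the level limit through the other group alone. Taken by library, 23 genes labelled WT were 2-fold higher, all 23 of them above 0 in the other library as well, and 32 were 2-fold lower, 27 of them below 0 in the other. The FKO-labelled counts were 33 and 11, of which 30 and 11 had the same direction in the other library. The selection of cells by SLC17A8 used the same contrast, so these counts are descriptions.

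Ranked by the weaker of the 2 log2 ratios, COL5A2, SOX1 and HMX3 were followed by RALYL, RORB and ZNF385D. RALYL, a putative RNA-binding protein, stood at 169.7 against 53.5 CPM labelled WT and 240.5 against 65.8 CPM labelled FKO, log2 ratios of 1.67 and 1.87. RORB, a nuclear receptor of the ROR family, had 48.9 against 16.0 CPM and 28.4 against 9.28 CPM, a log2 ratio of 1.61 in each library (1.48 to 1.75 and 1.39 to 1.83). ZNF385D, a zinc finger protein, had log2 ratios of 1.42 and 2.08. RORB thus had lower levels in the FKO-labelled library in both groups, at the same ratio.

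DIRAS3, an imprinted small GTPase, came next at 1.33 and 2.32, then ARID5B, a chromatin regulator, at 1.28 and 1.24, and the noncoding host gene MIR4500HG at 1.17 and 2.08. CACNA2D1, the alpha-2-delta subunit of calcium channels that binds gabapentin, had 81.0 against 40.0 CPM and 171 against 51.4 CPM, or 1.02 and 1.73. GNG11, a G protein gamma subunit, had 1.21 and 1.01, and its WT ratio was -0.20 when only cells with at most 5% mitochondrial UMIs were kept. The last of the 15 highest were IRX1 (1.45 labelled FKO), TOX (0.99 and 1.25), INSM1 and the spindle checkpoint gene BUB3 (0.98 and 1.08), which lay at or just under 2-fold in the weaker library.

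ARPP21, a cyclic AMP-regulated phosphoprotein, had log2 ratios of -1.25 and -1.19, the Wnt modulator DKK2 -1.27 and -1.14, and the heparan sulfate enzyme HS6ST3 -1.38 and -1.14. CRABP2, a carrier of retinoic acid, stood at 104 CPM in members against 228 CPM in comparators labelled WT, and at 20.4 against 49.6 CPM labelled FKO. PLS3, an actin-bundling protein, had 91.0 against 278 CPM and 60.1 against 131 CPM. These 5 genes were lower in members of both libraries at each library's own level.

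TAC1, the precursor of substance P, had 174 CPM in members against 400.2 CPM in comparators labelled WT, and 758 against 1527 CPM labelled FKO, log2 ratios of -1.20 and -1.01. ONECUT2, a homeodomain factor of several brainstem and spinal neuron classes, had -1.67 and -1.01. DIO3, which inactivates thyroid hormone, had -1.07 and -1.08. COL1A1 was among the 9 lower genes as well, with 1 UMI in 1595 members labelled WT against 142 UMIs in comparators, and 24.3 against 55.5 CPM labelled FKO. Its UMIs came from few cells, 0.279% of comparators labelled WT, and 3.57% of those labelled FKO.

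**Figure D3:**
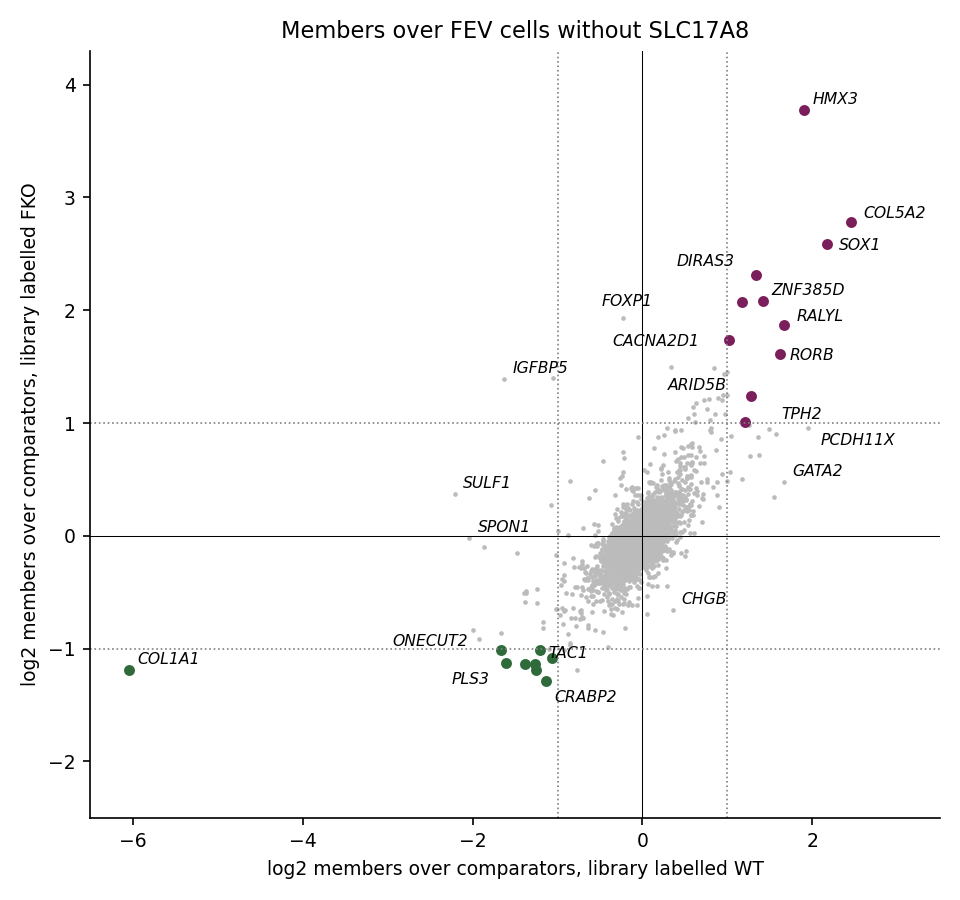
Log2 ratio of pooled CPM, members over comparators, in the WT-labelled library (x axis) and the FKO-labelled library (y axis), for 6525 genes with a mean CPM of at least 20. Purple points are the 11 genes at least 2-fold higher and green points the 9 genes at least 2-fold lower in both libraries, and dotted lines mark 2-fold. HMX3 and COL5A2 lie farthest out among the higher genes and COL1A1 among the lower ones, while IGFBP5 and FOXP1 lie above 2-fold in the FKO-labelled library alone.

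Gene groups of neuronal function are set beside the same shares of all genes, 41.4% lower and 31.2% higher in both libraries. Of 8 mature neuronal markers, 6 were lower and 1 was higher in members of both libraries, with median log2 ratios of -0.24 and -0.30. The neurofilament genes NEFL and NEFM were lowest among them at -0.92 and -0.67 and at -0.97 and -0.70. Of 19 presynaptic release genes, 13 were lower and 4 higher in both (medians -0.14 and -0.14), of 16 voltage-gated channel genes 12 and 3 (medians -0.31 and -0.22), and of 13 receptor subunits for glutamate and GABA 9 and 3 (medians -0.17 and -0.15). Over all 6525 genes the medians were -0.02 and -0.02. Summed over the presynaptic list, CPM was 4562 in members against 4203 in comparators labelled WT, and 6851 against 7107 labelled FKO. The sums of the other lists named here were lower in members of both libraries. None of the genes in these 4 groups was past 2-fold in both libraries.

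Axon guidance genes (19 passed, 3 higher and 8 lower in both) and cadherins (11 passed, 3 and 6) gave medians of -0.21 and -0.09 and of -0.14 and -0.04. ROBO1, a receptor for SLIT repellents, was among the higher ones at 0.89 and 1.22, and the protocadherin PCDH11X at 1.95 and 0.96. Summed CPM of the cadherins was higher in members, 746 against 681 labelled WT and 1594 against 1585 labelled FKO. For axon guidance genes it was 594 against 662 and 1759 against 1723. Of 20 raphe subtype genes known from mouse 6 passed, RORB only through its level in members, so its place past 2-fold is not read against the list. Among ERBB receptors and neuregulins, NRG1, a ligand of ERBB4, passed the level limit and was lower in members, at -0.82 and -0.64. Of 18 collagens other than COL5A2, 4 passed, COL1A1 and COL1A2 only through their levels in comparators, so their direction is not read against the list.

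Of 7 neuropeptides and granins that passed the level limit, 2 were higher and 2 lower in members of both libraries, with medians of -0.02 and 0.02, and TAC1 alone was past 2-fold. Of 23 genes of other ventral hindbrain and spinal neurons, 3 passed and all 3 were lower in members of both, with medians of -1.67 and -0.91, ONECUT2 among them past 2-fold. Over all 6525 genes, 41.4% were lower and 31.2% higher in members of both libraries. The counts here and in the next paragraph are too small to be read against those shares. Among 21 rostrocaudal hindbrain genes 1 passed, at -0.86 and -0.95. None of 14 serotonin receptor genes passed, and their CPM summed to 7.85 in members and 13.8 in WT-labelled comparators and to 19.6 and 26.2 labelled FKO.

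Of 5 neurotrophic receptor genes that passed, 2 were higher and 3 lower in both (medians -0.48 and -0.12). Among caveolins and cavins without CAV1, 1 passed and was lower at -0.25 and -0.48. Of 8 stress genes 2 passed and 1 was lower in both (medians -0.05 and -0.17). Of 9 immediate early genes 2 passed, 1 higher and 1 lower (medians 0.18 and 0.09), and the 9 summed to 129.7 CPM in members and 109 CPM in comparators labelled WT, and to 142 and 119 CPM labelled FKO.

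Promoter letters are shown for SLC17A8, which chose the members, for the neighbours HMX3 and HMX2, which were higher in members, and for TPH2, the enzyme that marks serotonin neurons. Other genes higher in members are not shown. Each is the 250 bases before the gene's start in RefSeq (GRCh38.p14), all on the plus strand, at chr12:100356824-100357073, chr10:123135720-123135969, chr10:123147886-123148135 and chr12:71938595-71938844. Capitals mark matches, on either strand, to 4 short motifs: CGGAAG for ETS factors such as FEV, AGATAA for GATA factors, CAAGTG for HMX and NKX2 homeodomains, and AGGTCA for ROR receptors.
SLC17A8: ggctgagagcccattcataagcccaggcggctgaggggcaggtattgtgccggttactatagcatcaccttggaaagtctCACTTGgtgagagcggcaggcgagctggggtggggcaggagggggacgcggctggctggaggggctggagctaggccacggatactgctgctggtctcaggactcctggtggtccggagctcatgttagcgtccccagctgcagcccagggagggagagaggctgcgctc
HMX3: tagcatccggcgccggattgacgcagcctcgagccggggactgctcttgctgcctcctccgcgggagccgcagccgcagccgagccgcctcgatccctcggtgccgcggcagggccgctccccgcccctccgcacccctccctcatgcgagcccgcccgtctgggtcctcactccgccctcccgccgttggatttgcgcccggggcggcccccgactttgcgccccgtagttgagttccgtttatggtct
HMX2: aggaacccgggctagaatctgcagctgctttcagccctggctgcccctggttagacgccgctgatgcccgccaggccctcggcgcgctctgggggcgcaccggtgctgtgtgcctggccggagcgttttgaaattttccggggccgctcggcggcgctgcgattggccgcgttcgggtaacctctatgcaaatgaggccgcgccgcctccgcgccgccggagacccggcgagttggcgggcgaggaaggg
TPH2: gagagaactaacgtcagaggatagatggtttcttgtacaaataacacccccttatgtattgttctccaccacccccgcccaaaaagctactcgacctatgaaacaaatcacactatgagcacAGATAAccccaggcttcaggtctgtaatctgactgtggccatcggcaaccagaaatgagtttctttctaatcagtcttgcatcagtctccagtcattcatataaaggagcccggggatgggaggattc
SLC17A8 held 1 match to CAAGTG, read on the other strand, TPH2 held 1 match to AGATAA, and HMX3 and HMX2 held none of the 4. Of 35116 promoter windows of this length, 9.50% held CAAGTG and 9.17% AGATAA, 16.5% held CGGAAG and 12.1% AGGTCA. A match is a description of letters and not evidence of binding.

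Members lay together in the rest of the transcriptome. Principal components were computed in each library over FEV cells without FEV and SLC17A8, and the 15 nearest neighbours of every cell were listed. On average 61.0% of a member's neighbours were members in the WT-labelled library and 64.5% in the FKO-labelled library, where members were 25.5% and 13.6% of FEV cells. Around comparators the shares were 9.11% and 3.51%. Cells with 10 or more SLC17A8 UMIs had 91.3% and 87.1% members around them, cells with 2 UMIs 33.2% and 40.1%, and cells with 1 UMI 18.5% and 15.6%. The neighbourhood of members thus thinned out towards the limit of 2 UMIs.

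Leiden clustering in the same space was run with 20 seeds, a setting chosen after the data had been seen because the clusters of a single run changed with its rounding. Clusters are unnamed, and in each run the cluster with the most members is described, by its median over the runs and its range. In the FKO-labelled library, members were 97.1% of that cluster (64.8% to 97.8%), which held 38.6% of all members (37.4% to 63.0%). In the WT-labelled library, members were 80.9% of it (44.8% to 86.4%), and it held 50.6% of all members (36.2% to 63.3%). That cluster was thus made up mainly of members in the median run, while many members lay outside it, and its boundary varied between runs. Companion markers were among the genes clustered, so their levels by cluster are a description.

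Within FKO-labelled members, those of that cluster had more COL5A2, SOX1, ERBB4 and HMX3 than the other members in all 20 runs, with median log2 ratios of 1.90, 1.72, 1.75 and 1.77. Among WT-labelled members ERBB4 and HMX3 were higher in all 20 runs, at medians of 1.31 and 1.04, and COL5A2 and SOX1 in 18, at 1.65 and 1.62. TPH2 was higher in all 20 runs of both libraries, at 0.73 labelled WT and 0.34 labelled FKO. CAV1 was higher in 17 runs labelled WT and 20 labelled FKO. SLC6A4 was higher in 11 runs labelled WT and 1 labelled FKO, so its direction within WT-labelled members depended on the run. In the run plotted by cluster, the 278 FKO-labelled members of cluster 5 had 462 CPM of TPH2 (432 to 493). The 428 of cluster 7, which held the most members, had 288 CPM (270 to 307), and the other 240 had 191 CPM. In the same order CAV1 was at 69.7, 53.8 and 15.2 CPM, and SLC6A4 at 119, 34.2 and 46.7 CPM. COL5A2, SOX1, ERBB4 and HMX3 were highest in cluster 7. The other members pooled above thus included a cluster with more TPH2 in that run.

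FKO-labelled members outside that cluster were deeper, with a median of 9843.5 UMIs over the runs (8691 to 15106) against 5634.5 inside it. High doublet scores were found in 21.6% of them (17.0% to 32.3%), against 1.13% inside (0.809% to 10.0%). In the WT-labelled library the shares were 18.5% outside (10.9% to 22.4%) and 8.26% inside (6.72% to 17.5%). Doublets were kept in the main groups, and high scores were found in 13.3% of members and 8.41% of comparators labelled WT, and in 13.8% and 7.07% labelled FKO. Without those cells the shares of members were 24.6% and 12.8%.

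**Figure D4:**
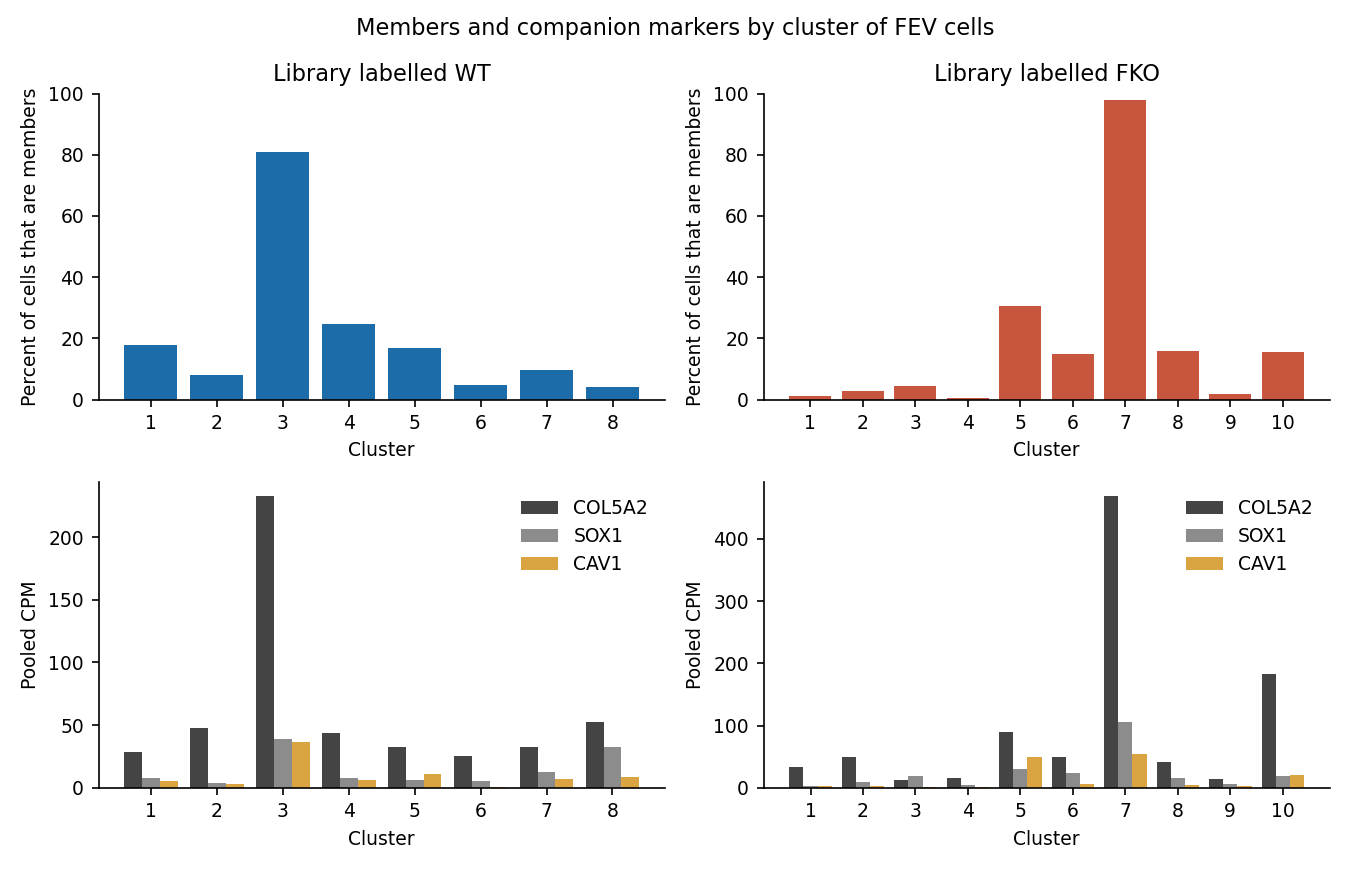
Top, the percent of cells in each numbered cluster (x axis) that are members, for the libraries labelled WT (left) and FKO (right). Bottom, pooled CPM of COL5A2, SOX1 and CAV1 over all cells of each cluster, with separate y axes for the libraries. The clusters are those of 1 of the 20 runs, in which members make up 80.9% of WT cluster 3 and 97.7% of FKO cluster 7, where COL5A2 is also highest.

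Between the libraries, members were compared with members and comparators with comparators. Over all 6525 genes the middle log2 value of FKO over WT was 0.37 in members and 0.37 in comparators, so changes are read against that shift. Companion markers were all higher in FKO-labelled members than in WT-labelled ones, from 0.51 (0.43 to 0.58) for COL5A2 to 1.15 (0.95 to 1.35) for ERBB4. In comparators the values ran from -1.15 (-1.42 to -0.89) for HMX3 to 0.69 (0.48 to 0.90) for SOX1. Members of both libraries were chosen by the same limit of 2 SLC17A8 UMIs, at median depths of 12385 (WT) and 6940 UMIs (FKO). COL5A2, SOX1, ERBB4 and HMX3 were highest in the cells with the most SLC17A8 UMIs in both libraries. What this selection added to the FKO over WT values of members was not tested. SLC17A8 itself was at 0.30 (0.26 to 0.34) in members, which is a description only, since SLC17A8 chose them.

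Over the 6 serotonergic transcription factors that passed the level limit, the middle log2 value between the libraries, FKO over WT, was 0.59 in members and 0.90 in comparators. Of these 6, HMX3 and INSM1 passed only through their levels in members, so these middle values are not read against each other. SLC6A4 had log2 ratios of FKO over WT of 1.13 (0.96 to 1.30) in members and 1.18 (1.06 to 1.29) in comparators, LMX1B 1.29 (1.15 to 1.42) and 1.18 (1.09 to 1.27), and SLC18A2 1.24 (1.05 to 1.43) and 1.49 (1.38 to 1.60). TPH2 was lower in FKO-labelled members, at -0.41 (-0.47 to -0.35), and stood at 0.13 (0.08 to 0.18) in comparators. GATA2 had 0.25 (0.10 to 0.40) in members and 1.44 (1.31 to 1.56) in comparators. TPH2 and GATA2 were therefore less far apart between members and comparators in the FKO-labelled library than in the WT-labelled library.

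The difference of the 2 log2 ratios, members minus comparators (the ratio of ratios), was at least 1 for 16 of 6525 genes (0.245%) and at most -1 for 3 genes (0.046%). The level limit is a mean over the 4 groups, so genes such as HMX3 can pass through the groups where they are high. These counts are therefore descriptions, and their balance is not read. COL1A1 led with 4.86, which rests on 1 UMI in WT-labelled members, a count whose log2 ratio of members over comparators had an interval of -11.36 to -3.54. IGFBP5, a binding protein for insulin-like growth factors, followed at 3.02, with 24.3 CPM in members and 75.3 CPM in comparators labelled WT, and 212 and 81.0 CPM labelled FKO. SULF1, a heparan sulfate sulfatase, had 2.58, and SPON1, a floor plate protein, 2.01. These genes sat in few cells: IGFBP5 was detected in 14.6% and SULF1 in 5.50% of FKO-labelled members.

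IGFBP5 came mainly from FKO-labelled members outside the cluster with the most members, at a median of 265 CPM over the 20 runs (262 to 330.0), against 20.5 CPM inside it (13.8 to 24.7). These are the members with more high doublet scores, and without high scores the FKO ratio of members over comparators was 1.75 and the ratio of ratios 3.12. The FKO ratio of members over comparators for IGFBP5, 1.39, was -1.57 when cells were thinned to 2000 UMIs and chosen again. FOXP1, a forkhead factor, and RIT2, a small GTPase of neurons, had ratios of ratios of 2.16 and 2.46, and both were higher inside that cluster in all 20 runs labelled FKO. FOXP1 reached a median of 161 CPM there (97.8 to 165), against 30.2 CPM in the other members, and was detected in 32.8% of FKO-labelled members. HMX3 was also among the 16 genes, at 1.87.

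At the low end stood the channel TRPM3 at -1.21, GATA2 at -1.19 and the granin CHGB at -1.02, followed by PCDH11X just short of that, the vesicular protein SLC10A4 at -0.75 and the guidance receptor ROBO2 at -0.73. CHGB had 1226 CPM in members and 956 CPM in comparators labelled WT, and 1581 and 2501 CPM labelled FKO. For 6 of the genes above, IGFBP5, SULF1, RIT2, FOXP1, CHGB and ROBO2, members were above comparators in one library and below them in the other, with intervals clear of 0. Over 16 alternatives RIT2, CHGB and ROBO2 kept both directions, IGFBP5 lost its FKO direction in 1, SULF1 lost its FKO direction in 6 (lowest -1.35) and FOXP1 its WT direction in 5 (highest 0.86).

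**Figure D5:**
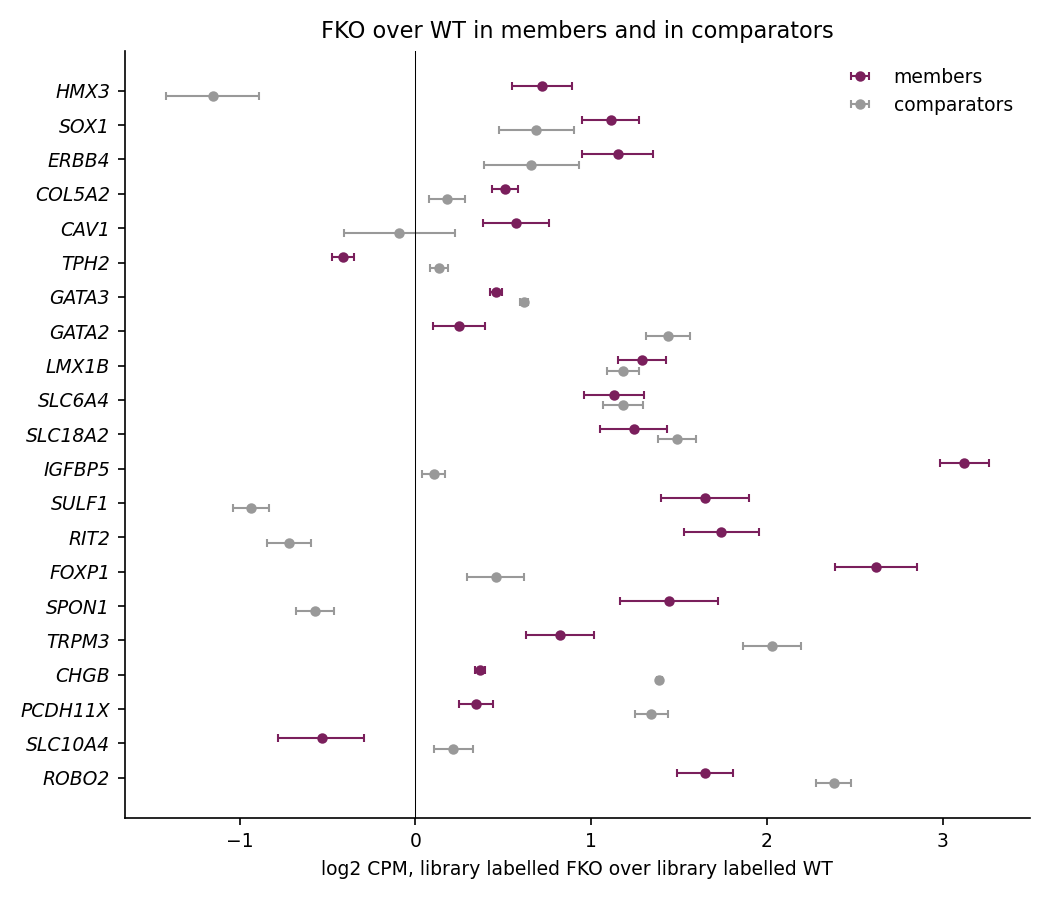
Log2 ratio of pooled CPM in the FKO-labelled library over the WT-labelled library (x axis) for named genes (y axis), in members (purple) and comparators (grey), with exact 95% intervals that cover counting error. HMX3, IGFBP5, SULF1, RIT2 and FOXP1 lie higher in members, and GATA2, TRPM3, CHGB and PCDH11X lie higher in comparators.

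Marker lists of other cell types were set beside these results. Hair cell genes, which would mark the other well-known site of VGLUT3, summed to 103 CPM in members and 90.4 CPM in WT-labelled comparators and to 127 and 114 CPM labelled FKO. MYO6, which many cells express, was the most abundant of the 10, while ATOH1 and OTOF had 0 UMIs in all 4 groups and POU4F3 had 2 UMIs in WT-labelled members and 0 in FKO-labelled ones. Of 6 genes of GABA and glycine neurons the sums were 120 and 102 CPM labelled WT and 167 and 149.7 CPM labelled FKO, most of it ABAT, and GAD2 had 5 and 17 UMIs in members. The 10 catecholamine and cholinergic genes summed to 25.9 and 28.7 CPM and to 13.3 and 9.49 CPM, with TH the most abundant. PNMT, which makes adrenaline, was past 2-fold in both libraries at low levels, 13.1 against 4.23 CPM labelled WT and 3.28 against 0.883 CPM labelled FKO, log2 ratios of 1.63 and 1.89, and its FKO ratio was -0.047 when the same cells were thinned to 2000 UMIs. The hair cell markers ATOH1, POU4F3 and OTOF were thus at or near 0 in members. MYO7A, another marker on that list, is not given here, and the summed list was higher in members of both libraries.

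Floor plate markers (8 genes, most abundant SPON1) summed to 15.8 CPM in members and 60.7 CPM in comparators labelled WT, and to 80.7 and 48.1 CPM labelled FKO. FOXA2 was part of that difference, at 2.99 and 4.80 CPM labelled WT and 29.1 (25.9 to 32.6) and 14.6 CPM (13.6 to 15.8) labelled FKO. FOXA1, its paralogue, had 1.03 and 3.24 CPM labelled WT and 21.2 and 5.22 CPM labelled FKO, with log2 ratios of -1.66 and 2.03. SPON1 was not higher in FKO-labelled members, with log2 ratios of -2.04 labelled WT and -0.02 labelled FKO. Its FKO ratio changed sign in 10 of 16 alternatives. The log2 ratio of FOXA2 labelled WT, -0.68, was 0.16 when cells were thinned to 2000 UMIs and chosen again. FKO-labelled members outside the cluster with the most members had a median of 31.1 CPM of FOXA2 over the 20 runs (30.7 to 36.9), those inside it 21.9 (15.9 to 23.1), and SHH and CORIN had 29 and 5 UMIs in all FKO-labelled members. Cycling genes (10, most abundant PCNA) summed to 44.1 and 95.5 CPM labelled WT and 80.2 and 75.2 CPM labelled FKO. Mesenchymal genes (8, most abundant COL1A2) gave 11.8 and 47.8 CPM and 110.3 and 181 CPM, and progenitor and glial genes (12, most abundant VIM) 630.2 and 1080 CPM and 766 and 1111 CPM. All 4 lists were lower in WT-labelled members than in their comparators.

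Without cells that held a UMI of COL1A1, COL1A2, MKI67 or TOP2A, a setting chosen after the data had been seen, the shares of members were 25.4% and 13.6%, and 12 genes were higher and 13 lower past 2-fold in both libraries. Of the 11 higher and 9 lower genes above, 9 and 8 were among them. By ratio of ratios 14 genes were then higher and 3 lower, among them 9 of the 16 and 3 of the 3 above.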

How the data were processed

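Single-cell 3' RNA counts of sorted day 42 serotonin neurons were measured in 2 libraries, labelled WT and FKO. The deposited files hold unique molecular identifier (UMI) counts per gene and barcode, made by the authors with Cell Ranger on GRCh38. The submitters' notes give version 7.0 and the file headers 7.1.0. Library totals, filters and depths stand in the report, and no cell was taken from the authors' own clustering.

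Barcodes that reached 1000 UMIs and 500 genes, with no more than 10% mitochondrial UMIs, were kept. Members and comparators were chosen by FEV and SLC17A8 UMIs, and members and gene lists were chosen with earlier results of these data known. UMIs were pooled per group and given as CPM with exact Poisson intervals, shares with exact binomial intervals, and log2 ratios with exact conditional intervals, all at 95%. A group at 0 was set to a floor of 3 counts over the group. Each group has 1 library, so no test was made. Genes with a mean CPM of at least 20 over the 4 groups were compared, without FEV and SLC17A8. Cells were also thinned to 2000 UMIs.

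Named genes are the companion markers, the serotonergic genes, list genes past 2-fold in both libraries or central to serotonin or glutamate transmission, the 15 highest and 10 lowest genes by the weaker ratio, and the 6 highest and 6 lowest ratios of ratios with at least 50 UMIs in members, without mitochondrial, ribosomal and clone-named genes. Other names were chosen after their values were seen. Some of the genes this rule names are not reported here. The 29 lists hold companion, serotonergic, transmitter, peptide, synaptic, channel, guidance, adhesion, matrix, positional and stress genes, and markers of other cell types.

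Per library, 30 principal components of 2000 variable genes in FEV cells, without FEV, SLC17A8 and mitochondrial genes, gave 15 neighbours per cell and Leiden clusters at resolution 0.5. Scrublet scored doublets, and the highest scores at 0.8% per 1000 barcodes were called high. Code was tested on simulated data. Python 3.11.15, numpy 2.4.6, scipy 1.17.1, pandas 2.3.3, scanpy 1.11.5, scikit-learn 1.9.0, igraph 0.11.9 and matplotlib 3.10.9 were used. Alternatives changed the mitochondrial limit, doublets, the SLC17A8 and FEV limits, thinning, weighting, scaling and the level limit. Further limits, a second depth, a filter on other cell types and 20 clustering seeds were chosen after seeing the data.

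Limits: with 1 library per genotype, biological spread is unknown, and genotype, depth, culture and capture cannot be told apart. UMI counts do not show protein, glutamate release or the edit at FOXA2. Free RNA and doublets add transcripts to any cell, and a limit of 2 UMIs misses shallow cells that express SLC17A8.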

Additional observations from a re-analysis of the deposited data

Results flagged for a closer look

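For 10 genes named in the text, members lay above comparators in one library and below them in the other, with counting intervals clear of 0 on both sides. The ratio of ratios (log2) was 1.67 for FOXA2, 3.68 for FOXA1, 3.25 for SHH, 3.02 for IGFBP5, 2.58 for SULF1, 2.46 for RIT2, 2.16 for FOXP1, 2.30 for SLC17A6, -1.02 for CHGB and -0.73 for ROBO2. Thinned to 2000 UMIs and chosen again, the WT ratio of FOXA2 turned from -0.68 to 0.16. Over 16 alternatives the FKO ratio of IGFBP5 turned in 1, the FKO ratio of SULF1 in 6 and the WT ratio of FOXP1 in 5. The ratios of ratios of FOXA1 and SLC17A6 fell to -0.33 and -0.52 at their lowest. SHH was not run over the alternatives. Of 442 genes of the lists and ranks, 29 (6.56%) went opposite ways in this manner. The ranks include genes chosen by their ratio of ratios, so this count is not read against all genes. With 1 library per genotype these differences were not tested.

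SLC17A8 also appeared in cells outside the main members and comparators. At least 2 UMIs of it were found in 3.31% of WT-labelled cells without FEV (4 of 121) and 4.90% of FKO-labelled ones (31 of 633). After thinning to 2000 UMIs these were 2 of 102 and 17 of 568. Free RNA was not measured against them. Among FEV cells above the mitochondrial limit, 31.1% labelled WT (1178 of 3785) and 8.64% labelled FKO (44 of 509) held at least 2.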

How the results depend on the processing

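Members and comparators were compared within each library, and with 1 library per genotype no paired test was made. Of 2674 values of single genes over the alternatives, 137 changed sign, 9 of them from a main value past 2-fold, given below, and 128 from a smaller one. Of all values 1591 stayed within their counting interval. Causes were not tested. The ratios of ratios given below for COL1A1, SLC17A6 and FOXA1 each rest on 1 group at 0 UMIs, set to the floor, and their main values were 4.86, 2.30 and 3.68.

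Main values were 25.5% (WT) and 13.6% (FKO) for members among FEV cells, 11 genes higher and 9 lower in both libraries, and 16 and 3 genes by ratio of ratios.

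With at most 5% mitochondrial UMIs (72 members labelled WT), shares were 22.1% and 12.3%, no gene (0) was lower, and ratios of ratios counted 145 and 75. GNG11 (WT) was -0.20 and HMX2 (WT) -1.01, and the ratio of ratios was -0.92 for COL1A1 and -0.52 for SLC17A6. At most 20% gave a WT share of 29.7%. Without high doublet scores the FKO share was 12.8%, with 19 genes higher and 14 lower.

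At least 1 SLC17A8 UMI gave 42.8% and 20.5%, 7 genes higher and 0 lower, and ratios of ratios 8 and 1. At least 3 gave 19.1% and 11.04%, with 18 higher. At least 5, chosen after seeing the data, gave 13.0% and 8.23%, 28 higher, 19 lower, and 5 low ratios of ratios. FEV with TPH2 gave 30.9% and 16.1%, with 5 lower.

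Thinned to 2000 UMIs with groups as chosen, 23 genes were higher, 20 lower and 14 low by ratio of ratios; COL1A1 was -0.22 by ratio of ratios and PNMT (FKO, main 1.89) -0.047. Chosen again, shares were 8.30% and 6.82%, with 48 higher, 50 lower, and 30 and 38 by ratio of ratios. IGFBP5 (FKO) was -1.57 and FOXA1 -0.33 by ratio of ratios. Thinned to 5000, chosen after seeing the data, shares were 15.1% and 10.0%, with 34 higher, 37 lower and 9 low ratios of ratios, and COL1A1 was -2.82.

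The mean of each cell's CPM gave 23 higher, 19 lower and 5 low ratios of ratios. A mean CPM of at least 5 gave 33, 24, 88 and 14. Of the 11 higher genes, 7 remained with at least 1 SLC17A8 UMI and 9 to 11 in each other setting. Of the 9 lower genes, 0 remained in 2 settings and 5 to 9 in the others. Over 20 clustering seeds, chosen after seeing the data, members made up 44.8% to 86.4% (WT) and 64.8% to 97.8% (FKO) of the cluster with the most members.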

Other observations

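FKO-labelled cells without FEV that held at least 2 SLC17A8 UMIs (31 cells, median 4452 UMIs) had 109 CPM of SOX1 (19 UMIs) and 395 CPM of FOXA2 (69 UMIs). FKO-labelled cells with neither FEV nor SLC17A8 (571 cells, median 5715 UMIs) had 17.9 and 84.8 CPM.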
